A study of Arabidopsis thaliana with 4 samples.

Results

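The JAZ (JASMONATE ZIM-DOMAIN) genes of Arabidopsis thaliana encode the repressors of jasmonate signalling. JAZ1 to JAZ10 were taken by their TAIR10 locus identifiers, and all 10 were found among the 27444 nuclear coding genes of the gene table. Chromatin bound by the DELLA protein RGA had been mapped by ChIP-seq (chromatin immunoprecipitation and sequencing) with anti-FLAG beads in seedlings grown for 10 days in continuous light. The tagged lines were a FLAG-rga11 mutant and a FLAG-RGA wild type, both labelled sly1 dP. The library titled as control of the mutant is described in the labels as sly1 dP, and the one titled as control of the wild type as RGA sly1 dQ. Each of these groups had 1 library, so no value below has a replicate check and no test between the lines was possible. The labels give neither the promoter nor the construct behind either tagged protein, nor what dP and dQ stand for.

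JAZ proteins hold MYC-type bHLH transcription factors inactive, in part by recruiting TOPLESS corepressors through the adaptor NINJA. When jasmonoyl-isoleucine accumulates, the F-box protein COI1 binds JAZ proteins and they are degraded, which frees the MYC factors. Many JAZ genes are themselves induced by jasmonate, which restores repression. DELLA proteins such as RGA repress growth, are removed in response to gibberellin through the F-box protein SLY1, and can bind JAZ proteins directly, so that the gibberellin and jasmonate pathways meet at the protein level. The peaks bear on another question, whether RGA and its mutant form lie on the chromatin of the JAZ genes.

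No JAZ gene carried a peak of the FLAG-rga11 mutant, whereas 5 of the 10 carried a peak of the FLAG-RGA wild type. The 5 were JAZ1 (AT1G19180), JAZ2 (AT1G74950), JAZ3 (AT3G17860), JAZ6 (AT1G72450) and JAZ9 (AT1G70700), with 1 peak each. A gene was taken as marked when the summit of a peak fell in its body or no more than 1 kb past one of its ends. By that rule 1.79% of all coding genes were marked in the mutant list and 23.2% in the wild-type list. An empty set among 10 genes is close to the mutant background. The wild-type share of 50% among the JAZ genes was above its background, but 1 gene is worth 10% of so small a family. None of the 5 wild-type JAZ peaks overlapped a mutant peak. With 505 mutant peaks against 6116 in the wild type, an empty overlap among 5 peaks says little about the JAZ genes. The share of all wild-type peaks that overlap a mutant peak is not given here.

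The marked and unmarked genes were spread over the known relatives. Both members of the JAZ1 and JAZ2 pair were marked, JAZ1 being among the first repressors shown to be COI1 targets and JAZ2 being known for its part in guard cells. In the group of JAZ3, JAZ4 and JAZ9, JAZ3 and JAZ9 were marked and JAZ4 (AT1G48500) was not. JAZ3 was first known from the jasmonate-insensitive jai3 mutant, and JAZ9 is known to interfere with the binding of RGA to PIF3. Of the pair JAZ5 (AT1G17380) and JAZ6, JAZ6 alone was marked. Neither JAZ7 (AT2G34600) nor JAZ8 (AT1G30135), repressors with an EAR motif of their own, was marked. JAZ10 (AT5G13220), known for splice forms that resist degradation, was not marked either.

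The wild-type peaks are described here in order of their fold, the authors' ratio of ChIP coverage to control at the summit. Fragments of the ChIP library covering a summit were counted back from that fold and its p-value. Intervals are exact 95% Poisson intervals of that number. For a fold they are carried over with the control held fixed, so they cover counting error of the ChIP library only. All positions are on TAIR10, and distances to genes rest on the TAIR10.1 gene table, whose nuclear coordinates were taken as shared.

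The JAZ9 peak had the highest fold of the family. It ran from 26657625 to 26657855 on chromosome 1, with the summit at 26657783, 433 bp beyond the gene. The fold was 3.80 (2.95 to 4.81) with 67 fragments (51.9 to 85.1) and a −log10 q of 16.9, and 93.3% of the wild-type peaks had a lower fold. No other gene lay within 1 kb of this summit, and the next coding gene on that side, AT1G70710 (GH9B1), lay 1778 bp from JAZ9.

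The JAZ6 peak came next. It lay at 27276706 to 27277119 on chromosome 1, with the summit at 27276963, 401 bp beyond JAZ6 and inside the long non-coding RNA gene AT1G09307. Its fold was 3.40 (2.76 to 4.14) with 96 fragments (77.8 to 117), and its −log10 q of 20.7 was the highest of the 5. A lower fold was found for 88.5% of the wild-type list. Whether the signal belongs to JAZ6 or to that gene cannot be told apart.

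The JAZ2 peak covered 28150944 to 28151288 on chromosome 1, with the summit at 28151145, in the gap of 1473 bp that separates JAZ2 from AT1G74960 (FAB1), a fatty acid synthesis gene. The summit was 699 bp from JAZ2 and 775 bp from AT1G74960, so it marked both genes by the 1 kb rule. The fold was 3.01 (2.31 to 3.87) with 60 fragments (45.8 to 77.2) and a −log10 q of 10.7.

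The JAZ1 peak ran from 6620905 to 6621157 on chromosome 1, with the summit at 6621109. The summit was 668 bp from JAZ1 and 38 bp from the long non-coding RNA gene AT1G05473, within the 2770 bp between JAZ1 and AT1G19170. It had the most ChIP fragments of the 5, 102 (83.2 to 124), but a fold of 2.54 (2.08 to 3.08) and a −log10 q of 13.5.

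The JAZ3 peak was the weakest and the closest to its gene. It lay at 6119412 to 6119672 on chromosome 3, with the summit at 6119576, 131 bp from JAZ3 and with no other gene within 1 kb. The fold was 2.06 (1.65 to 2.53) with 88 fragments (70.6 to 108) and a −log10 q of 7.004. It was the only JAZ peak below the median fold of the wild-type list, 2.37.

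Neighbours in this order had overlapping intervals, and whether their folds differ was not tested. The intervals of JAZ9 and JAZ6 both lay above that of JAZ3. Each fold divides ChIP coverage by a different control level. Relative to the genome background of the call, the control at the summit stood at 1.17 for JAZ9, 1.91 for JAZ6, 1.33 for JAZ2, 2.73 for JAZ1 and 2.93 for JAZ3. The lowest folds, at JAZ1 and JAZ3, went with the highest control levels, while their fragment numbers were among the upper 3. The part of control signal in the order of the folds was not tested.

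**Figure D1:**
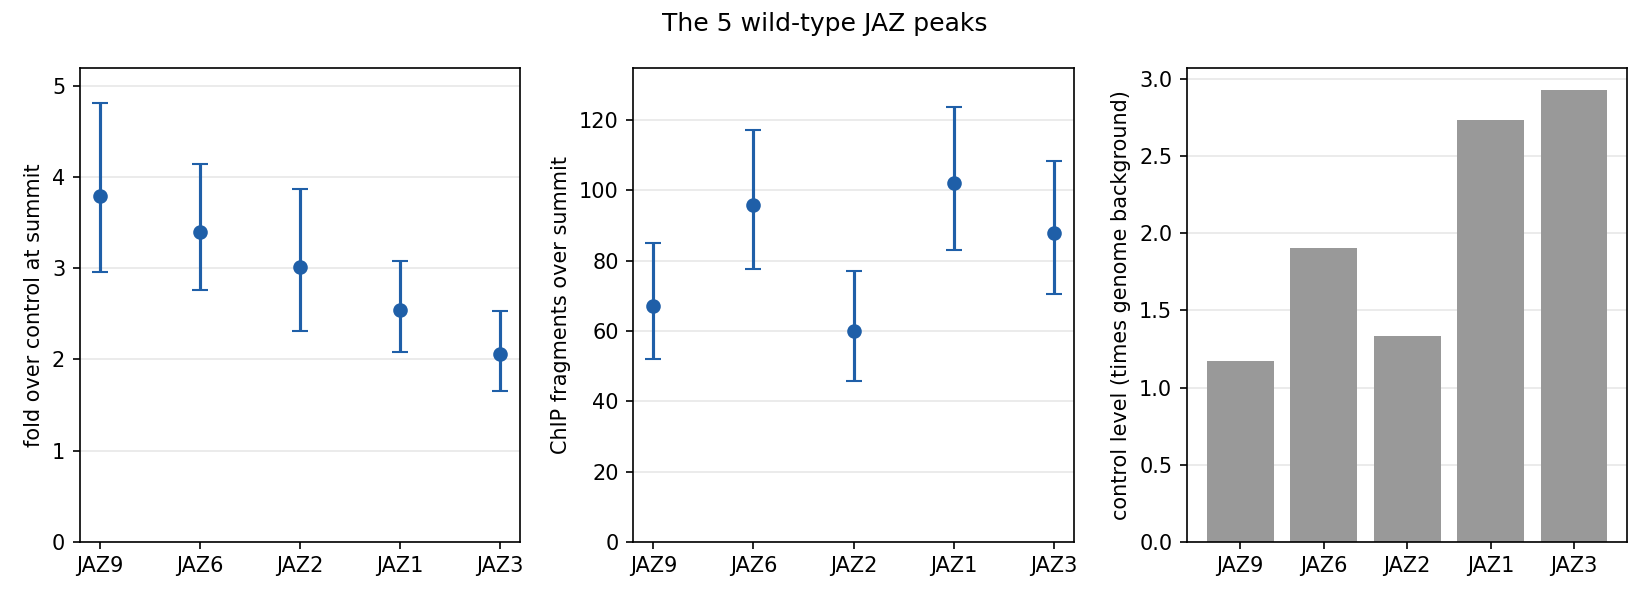
Fold over control, ChIP fragments over the summit and control level (times the genome background) at the 5 wild-type JAZ peaks, 1 library. Bars on points are exact 95% Poisson intervals with the control held fixed. Folds span 3.80 at JAZ9 to 2.06 at JAZ3, while fragments are highest at JAZ1 (102) and control is highest at JAZ3 (2.93).

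All 5 summits lay outside the gene body. None of the 10 JAZ genes had a wild-type summit inside, where 13.2% of coding genes had one. An empty set among 10 genes is not far from that share. A summit within 1 kb but none inside was found at 5 of 10, where 9.98% of coding genes had this. These are the same 5 marked genes, so this is no second result. Across the genome 43.0% of the marked genes had a summit within 1 kb but none inside. JAZ genes are between 923 and 3338 bp long, around the median of 2078 bp for coding genes. JAZ1 and JAZ3 had their summit below the lower-coordinate end, and JAZ2, JAZ6 and JAZ9 above the higher one. The gene table gives no strand, so upstream and downstream were not told apart, and promoter sequences are not shown here.

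**Figure D2:**
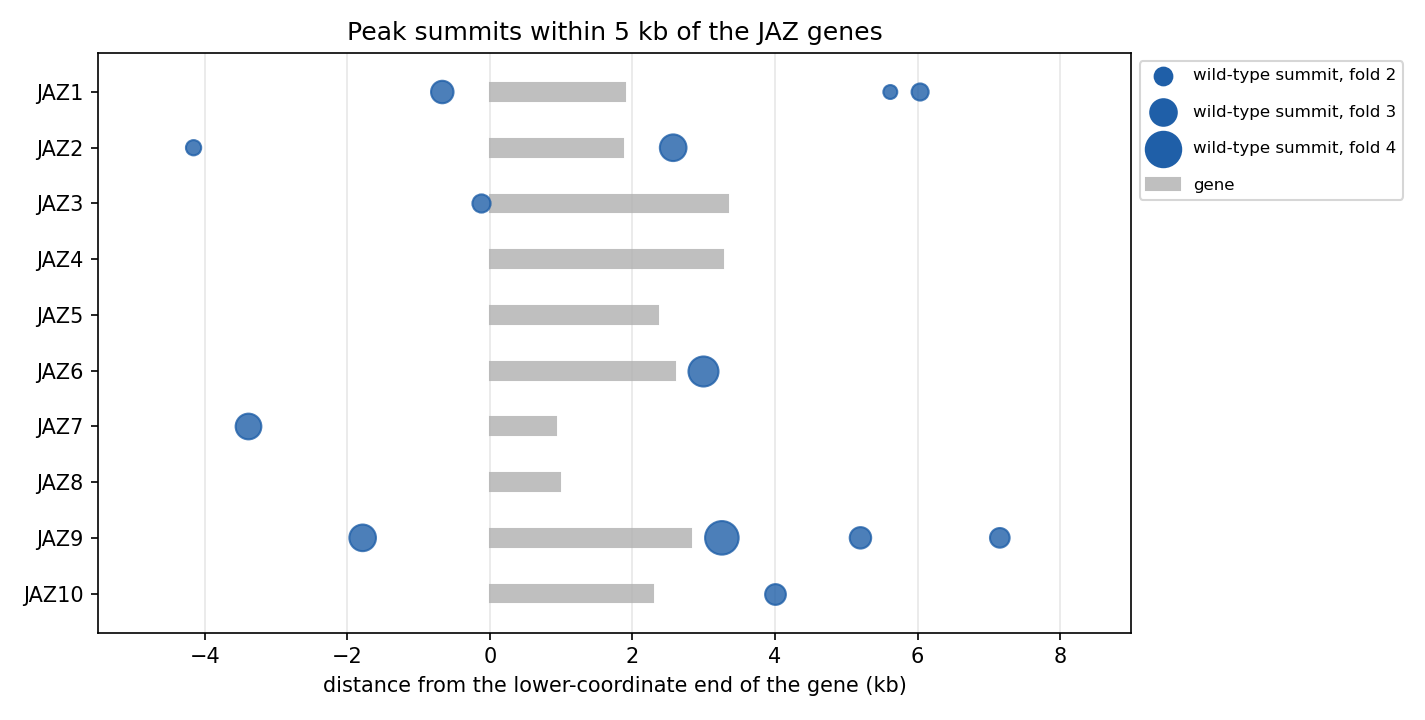
Summits within 5 kb of each JAZ gene, by distance in kb from the lower-coordinate end of the gene. Grey bars are the genes to scale and circle area follows the fold of wild-type peaks; no mutant summit falls in this range. The 5 nearest summits sit 131 to 699 bp outside JAZ1, JAZ2, JAZ3, JAZ6 and JAZ9.

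With a −log10 q of at least 10 required, 4 JAZ genes stayed marked in the wild type (JAZ1, JAZ2, JAZ6 and JAZ9), where 6.54% of coding genes did. Of the 5 JAZ peaks, 4 had a fold above the median of the wild-type list. Their widths ran between 231 and 414 bp, and the median width of the list was 215 bp. Control signal over 5 times the background, found at 6.64% of wild-type peaks, was found at none of the JAZ peaks. None among 5 peaks is close to that share.

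**Figure D3:**
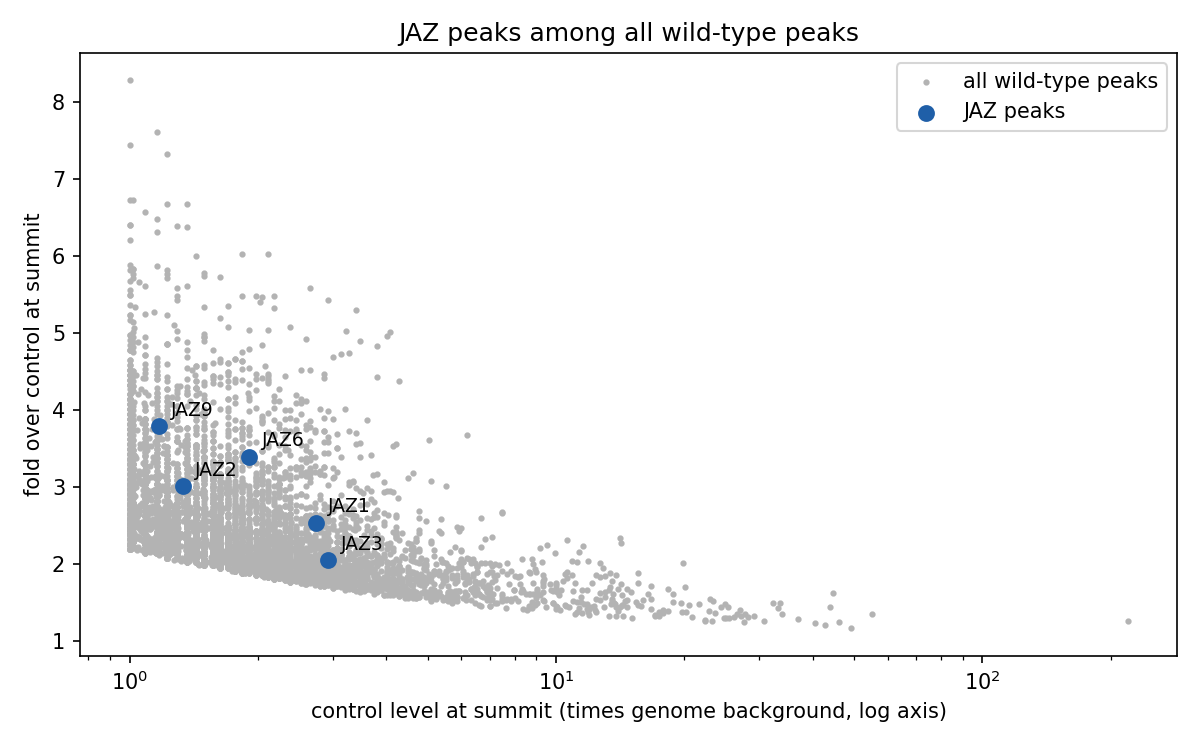
Fold against control level (times the genome background, log axis) for the 6116 wild-type peaks, with the 5 JAZ peaks named. The JAZ peaks lie at control levels of 1.17 to 2.93 and folds of 2.06 to 3.80.

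The 5 unmarked genes differed in how far the nearest summit lay. At JAZ10 the nearest mutant summit was 33885 bp away, against 1713 bp for the nearest wild-type summit (fold 2.35), which lay inside the neighbouring gene AT5G13230. This was the closest miss of the 1 kb rule. At JAZ7 these distances were 47915 bp in the mutant and 3394 bp in the wild type (fold 2.91), the wild-type summit being inside AT2G34590. At JAZ8 they were 120002 bp in the mutant and 8468 bp in the wild type (fold 1.89).

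JAZ4 and JAZ5 lay farthest of the 10 from a wild-type summit. JAZ4 had its nearest mutant summit 873264 bp away and its nearest wild-type summit 9682 bp away (fold 2.78), and 0.765% of coding genes lay farther from a mutant summit. JAZ5 had its nearest mutant summit 32215 bp away and its nearest wild-type summit 20199 bp away. That wild-type summit lay inside the lipoxygenase gene LOX3 (AT1G17420), had a fold of 1.41, and sat on a control level of 17.8 times the background. JAZ5 was the only JAZ gene with no wild-type summit within 10 kb, where 67.2% of coding genes had one.

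At the marked genes the nearest mutant summits lay 7301 bp from JAZ6, 16581 bp from JAZ9, 26865 bp from JAZ3, 74629 bp from JAZ1 and 165262 bp from JAZ2. The one nearest JAZ6 lay inside EXO70D1 (AT1G72470), a gene of the exocyst complex, had a fold of 2.93 and overlapped a wild-type peak. JAZ6 was the only JAZ gene with a mutant summit within 10 kb, where 8.37% of coding genes had one.

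Over the family the median distance to the nearest summit was 40900 bp in the mutant and 1206 bp in the wild type. The median over all coding genes was 94145 bp in the mutant and 5423 bp in the wild type. In either list 7 of the 10 JAZ genes were nearer to a summit than those medians. A median splits all coding genes evenly, so 7 of 10 is not far from the share of coding genes. In the wild type the 7 include all the marked JAZ genes.

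**Figure D4:**
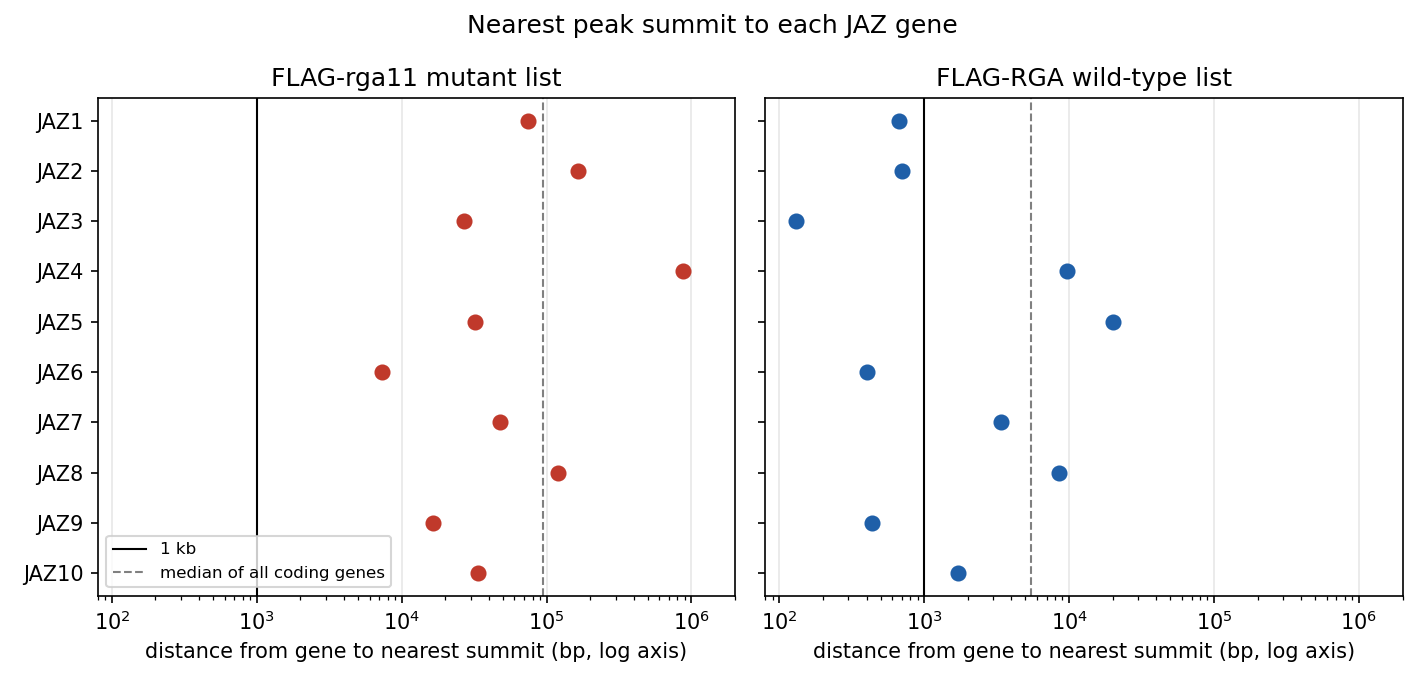
Distance in bp (log axis) from each JAZ gene to the nearest summit of the mutant list (left) and of the wild-type list (right), with the 1 kb limit (solid line) and the median of all coding genes (dashed line). All 10 genes lie beyond 1 kb in the mutant list, and 5 lie within it in the wild-type list.

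Several JAZ genes had further wild-type summits beyond 1 kb. The counts within 10 kb given here include the peak within 1 kb of a marked gene. Around JAZ9 there were 4 within 10 kb, among them one 1785 bp away inside AT1G70690 (HWI1) with a fold of 3.01 and one 2377 bp away inside GH9B1 with a fold of 2.43. JAZ2 also had 4 within 10 kb. One of these lay inside ORA47 (AT1G74930), an AP2/ERF factor gene of the jasmonate response, with a fold of 1.72 on a control level of 16.7 times the background. JAZ1 had 3 and JAZ6 had 2, while JAZ3, JAZ4, JAZ7, JAZ8 and JAZ10 had 1 each. The single summit at JAZ3 was its own peak, so that gene had no further one. Coding genes had 1.34 wild-type summits within 10 kb on average.

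The lists differ in size and coverage. The mutant list held 505 peaks and the wild-type list 6116. ChIP coverage in the mutant call had been scaled by 0.470 to a genome background of 7.21 fragments per base, against 14.5 in the wild-type call. The peak names of the mutant list carry a name for the control that matches none of the labels, so which library served there is not settled. To see which JAZ peaks the mutant call could have listed, wild-type ChIP and control coverage were scaled to the mutant background, and the p-value was recomputed and set against the lowest −log10 p of the mutant list, 6.03.

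After that scaling 4 of the 5 JAZ peaks passed. The recomputed −log10 p was 12.3 at JAZ6, 10.5 at JAZ9, 8.52 at JAZ1, 6.97 at JAZ2 and 5.05 at JAZ3. JAZ3 was below the lowest value of the mutant list. Among all wild-type peaks 35.6% passed. All of these peaks were selected by the wild-type call itself, so their coverage and the recomputed values may run high. Coverage of the mutant library at these sites was not analysed here, and how much of the difference between the lines rests on ChIP efficiency or on the amount of tagged protein was not tested.

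Beyond the 10 repressors, 38 other jasmonate genes were listed. In the mutant list 2 of the 38 were marked (5.26%), and in the wild-type list 17 were (44.7%), beside 1.79% and 23.2% of all coding genes in the mutant and wild-type lists. Among the other TIFY genes, none of 5 was marked in the mutant and 1 of 5 in the wild type, the repressor gene JAZ12, with a summit inside the gene at a fold of 2.29. JAZ11, the PEAPOD genes PPD1 and PPD2, and TIFY8 were unmarked in both lists.

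The receptor and corepressor genes were marked most often among these groups in the wild type, with 1 of 7 in the mutant and 5 of 7 in the wild type. The genes of TOPLESS and its 4 relatives, corepressors that JAZ complexes recruit, were all marked in the wild type. Their strongest folds there were 3.99 at TPL, 3.11 at TPR3, 2.93 at TPR1, 2.87 at TPR2 and 2.33 at TPR4. The receptor gene COI1 and the adaptor gene NINJA were unmarked in both lists. TPR2 was the marked gene of the mutant list, with a fold of 3.95 that ranked 26 among its 505 peaks. The mutant summit at TPR2 lay 4 bp from the wild-type summit, and control levels were 1.25 times the background in the mutant and 2.31 in the wild type.

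Of the MYC and related bHLH genes none of 6 was marked in the mutant and 2 of 6 in the wild type. MYC4 had a fold of 2.85 at a summit 720 bp away, which lay nearer to another coding gene. MYC2, the principal activator of the pathway, had a fold of 1.33 inside the gene on a control level of 17.1 times the background. The −log10 q of that MYC2 peak was 4.19, also near the lowest of the list. MYC3 and the repressors JAM1, JAM2 and JAM3 had no peak in either list.

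Synthesis genes were marked in 1 of 11 cases in the mutant and in 7 of 11 in the wild type. LOX2, a plastid lipoxygenase, had the strongest wild-type fold, 4.90, which was above that of any JAZ peak. That summit lay 915 bp from LOX2, near the limit of the 1 kb rule, and a second LOX2 peak had a fold of 4.53. AOC1 (3.10), LOX6 (2.59), LOX4 (2.14), OPR3 (1.85), LOX3 (1.67) and the allene oxide synthase gene AOS (1.34) followed. The AOS peak had a −log10 q of 3.48, near the lowest of the list. LOX4 was marked in both lists, with a mutant fold of 2.33 at a summit 17 bp from the wild-type one. The control level there was 3.19 times the background in the mutant and 9.94 in the wild type.

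Of the genes for jasmonate inactivation, the 6 that the gene table names (CYP94B1, CYP94B3, CYP94C1, IAR3, ILL6 and JRG21) were unmarked in both lists. Of 3 loci that the gene table does not name, none was marked in the mutant, and AT5G05600 (3.36) and AT2G38240 (2.23) were marked in the wild type. Both had first been listed with the inactivation genes, and with them that group counts 0 of 8 marked in the mutant and 2 of 8 in the wild type. Among the strongest peaks of the 17 wild-type marked genes, 5 stood on a control level over 5 times the background, at MYC2, LOX3, LOX4, AOS and OPR3. No JAZ peak did, but none among 5 peaks is close to the 6.64% of all wild-type peaks. The part of that control signal in the pathway count was not tested.

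**Figure D5:**
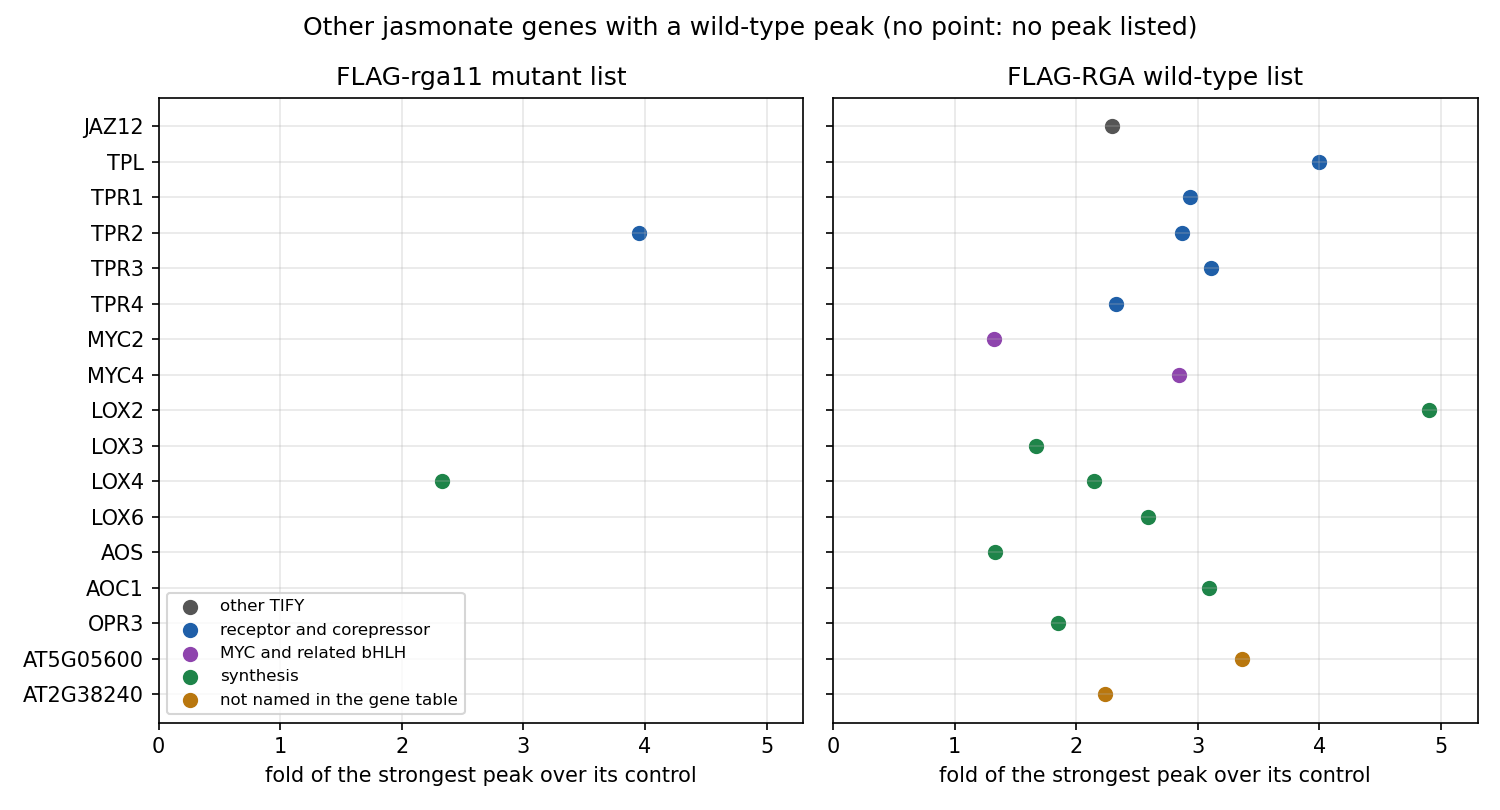
Fold of the strongest peak within 1 kb at each of the 17 other jasmonate genes that the wild-type list marks, in the mutant list (left) and the wild-type list (right); colours give the gene group. The mutant list has points at TPR2 (3.95) and LOX4 (2.33) alone, and the wild-type folds run from 1.33 at MYC2 to 4.90 at LOX2.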

How the data were processed

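Peak lists of the FLAG-rga11 mutant and the FLAG-RGA wild type were used, 1 library each; the controls entered through the authors' peak calls. MACS2 2.2.7.1, deepTools 3.1.3, Trimmomatic 0.39, Bowtie2 2.4.5 and the TAIR10 genome are named in the submitters' processing notes. The deposited values of a peak are a fold (ratio of ChIP over control coverage at the summit), a −log10 p and a −log10 q; the deposited score was not used. The lowest −log10 q was 3.01 in the mutant and 3.00 in the wild type.

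ChIP fragments and control level at each summit were solved from the deposited fold and −log10 p (Poisson tail, pseudocount 1). Solutions fell within 0.001 of the −log10 p for 100% of mutant and 99.98% of wild-type peaks, and the procedure was tested on simulated data. The genes came from RefSeq on TAIR10.1. All 48 loci were found. The JAZ genes and the jasmonate lists were chosen with earlier results of these data known. Every JAZ peak within 1 kb is named, as is every other jasmonate gene marked in either list. With 1 library per group no test, SD or batch comparison was possible. Python 3.11.15, scipy 1.17.1 and pandas 2.3.3 were used.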

Additional observations from a re-analysis of the deposited data

How the results depend on the processing

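Of 41 alternative values 34 kept their side or stayed within 1.5 times the main one. That count includes values whose outcome was fixed in advance, as said below, so it is no measure of robustness. In the mutant list 0 JAZ genes were marked under each of the 7 alternatives run. That outcome was fixed by the main result and adds no support, as the mutant summit nearest to any JAZ gene lay 7301 bp away. In the wild type 5 JAZ genes were marked at a −log10 q of 5 (16.4% of coding genes), with peak intervals (24.2%) and with the nearest gene only (16.9%). A flank of 2 kb marked 6, adding JAZ10 (30.3% of coding genes), and a −log10 q of 10 marked 4 (6.54%). They numbered 3 with a flank of 500 bp, where 18.7% of coding genes were marked. With summits inside genes only they numbered 0 (13.2% of coding genes), since all 5 summits lie between 131 and 699 bp outside. The other jasmonate genes marked in the wild type went from 17 to 14 at a −log10 q of 5, which dropped TPR4, MYC2 and AOS. At a −log10 q of 10 they numbered 11. The share of coding genes went from 23.2% to 16.4% and 6.54% by the same rules. In the mutant the other jasmonate genes marked numbered 1 inside genes only, 1 at a −log10 q of 5 and 0 at 10. The shares of coding genes there were 1.22%, 1.04% and 0.339%. Of the JAZ peaks scaled to the mutant call, 4 passed its lowest p and 2 had a fold of at least 2.93, the lowest of a mutant peak with control at background. That fold is no bound for the JAZ peaks, whose control lay above background, and the median fold of the mutant list is 2.61. Sharing stayed at 0 for an overlap of 50% and for summits within 100 bp, which the same distance had fixed. The folds of the 5 marked JAZ genes did not change with the nearest peak or a flank of 2 kb. Each had 1 summit within 1 kb, so the nearest peak was the same one in advance and adds no support. Within 2 kb only JAZ9 had a further summit, with a lower fold of 3.01. No paired analysis was possible because each group has 1 library.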
